A study of Homo sapiens with 24 samples.

Results

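ABC transporters are membrane proteins that use ATP to move drugs, lipids, metal complexes and conjugated metabolites across membranes. The genes described here are those whose symbols belong to subfamilies A, B, C, D or G with a number (ABCA2, ABCB1 and so on). There are 42 of them among the 25277 symbols of the table, and each occurs on 1 line. They divide into 12 of subfamily A, 9 of B, 12 of C, 4 of D and 5 of G. Of the 42, 24 were above the floor of the table often enough to be tested, 2 were above it too seldom to be tested, and 16 were listed at 0 throughout.

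The family is best known in cancer for efflux of drugs. ABCB1, also called P-glycoprotein, exports taxanes such as docetaxel and paclitaxel, and ABCC1 and ABCG2 export other anticancer drugs and conjugates. Members of subfamily A mostly move lipids, the smaller transporters of subfamily B work in mitochondria, lysosomes or other inner membranes, and those of subfamily D carry fatty acids into peroxisomes or, for ABCD4, cobalamin out of lysosomes. RNA levels say nothing direct about how much of a pump reaches the cell surface.

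The cells were 22Rv1DR and DU145DR, sublines of the human prostate cancer lines 22Rv1 and DU145. The labels call them aggressive, and they are known as sublines selected for docetaxel resistance. Each subline had 3 arms, namely siPOM121 construct 1, siPOM121 construct 2 and a control that the labels do not describe further. POM121, the target of both siRNAs, is a membrane-anchored nucleoporin. The values are log2 FPKM (fragments scaled for the length of the transcript and the size of the library), with every value at or below 1 FPKM listed as 0, and levels are given here in FPKM. There were 24 samples, which are 12 libraries read on 2 lanes each, or 2 libraries per group. In 22Rv1DR construct 1 had libraries 4B and 5B, construct 2 had 4C and 5C, and control had 4A and 5A. In DU145DR construct 1 had 1B and 2B, construct 2 had 1C and 2C, and control had 1A and 2A. The labels do not say whether the libraries within a group are separate cultures, so the p-values reflect the spread among libraries, which may be technical. The number of reads behind each value is unknown. A fold change is siPOM121 over control unless another pair is named, on the log2 scale with its standard error, and a gene rose or fell if its Benjamini-Hochberg adjusted p in limma, over all 13622 symbols tested, was below 0.05.

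POM121 was lower after siRNA in both sublines. In 22Rv1DR it had 7.68 and 7.81 FPKM with construct 1 and 6.73 and 7.43 FPKM with construct 2, against 38.5 and 37.8 FPKM in control (log2 fold change -2.37 ± 0.05, adjusted p = 9.48e-09). In DU145DR it had 13.4 and 13.5 FPKM with construct 1 and 12.4 and 13.2 FPKM with construct 2, against 21.6 and 21.3 FPKM in control (-0.71 ± 0.05, adjusted p = 5.66e-05). Its close paralog POM121C fell alongside, with log2 fold changes of -2.58 in 22Rv1DR and -0.71 in DU145DR; the genes share much sequence, and whether the reads tell them apart was not tested. All 10 prostate epithelial markers examined were above 0 in 22Rv1DR, and 4 of them, KRT8, KRT18 and EPCAM included, were above 0 in DU145DR, where KLK3 was listed at 0. Of 10 markers of stroma, endothelium and blood, COL1A1 was the single gene above 0 in either subline. Libraries 4C and 5C stood apart from each other, and with 2 libraries it cannot be told which of them is unusual. The median absolute log2 difference between these libraries was 0.167 over all symbols and 0.199 over the ABC transporters, whereas in the other 5 groups it was 0.048 to 0.064 and 0.039 to 0.075.

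The stretches before the annotated starts of 6 members are shown because the main results turn on them. ABCB1 is the member with the highest level in both sublines, and ABCA7, ABCB6, ABCG4, ABCA2 and ABCC6 rose with each construct in DU145DR. Each is the 250 bases before the RefSeq gene start on GRCh38.p14, written 5′ to 3′ on the gene's strand, with GC boxes (GGGCGG) and CCAAT boxes in capitals where they occur on either strand. The RefSeq start of ABCB1 is its most upstream one, and ABCB1 transcripts are also known to start at a promoter further downstream, which is not shown.
ABCB1, chr7:87713296-87713545, minus strand: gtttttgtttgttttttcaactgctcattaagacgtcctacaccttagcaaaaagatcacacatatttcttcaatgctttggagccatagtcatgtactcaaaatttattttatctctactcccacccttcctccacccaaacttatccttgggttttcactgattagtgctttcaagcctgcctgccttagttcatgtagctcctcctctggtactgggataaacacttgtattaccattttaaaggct
ABCA7, chr19:1039857-1040106, plus strand: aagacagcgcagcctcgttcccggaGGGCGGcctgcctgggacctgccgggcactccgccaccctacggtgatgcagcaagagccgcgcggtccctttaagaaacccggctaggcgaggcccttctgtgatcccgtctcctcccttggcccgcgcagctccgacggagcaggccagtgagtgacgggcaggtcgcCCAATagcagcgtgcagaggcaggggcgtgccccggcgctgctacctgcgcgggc
ABCB6, chr2:219218959-219219208, minus strand: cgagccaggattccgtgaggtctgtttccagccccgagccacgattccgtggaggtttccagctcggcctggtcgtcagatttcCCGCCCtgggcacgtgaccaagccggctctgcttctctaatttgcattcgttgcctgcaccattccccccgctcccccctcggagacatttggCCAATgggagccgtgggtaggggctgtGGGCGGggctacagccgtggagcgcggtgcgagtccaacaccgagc
ABCG4, chr11:119148802-119149051, plus strand: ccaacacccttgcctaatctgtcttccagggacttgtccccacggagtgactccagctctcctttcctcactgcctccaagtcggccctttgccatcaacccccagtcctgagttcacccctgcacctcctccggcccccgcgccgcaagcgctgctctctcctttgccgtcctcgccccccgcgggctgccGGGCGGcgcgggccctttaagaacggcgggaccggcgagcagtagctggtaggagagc
ABCA2, chr9:137028923-137029172, minus strand: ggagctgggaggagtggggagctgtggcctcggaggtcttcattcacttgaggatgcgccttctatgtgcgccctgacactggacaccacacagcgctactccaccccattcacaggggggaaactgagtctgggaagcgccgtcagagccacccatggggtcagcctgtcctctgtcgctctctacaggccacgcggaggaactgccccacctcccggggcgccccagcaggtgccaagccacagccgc
ABCC6, chr16:16223495-16223744, minus strand: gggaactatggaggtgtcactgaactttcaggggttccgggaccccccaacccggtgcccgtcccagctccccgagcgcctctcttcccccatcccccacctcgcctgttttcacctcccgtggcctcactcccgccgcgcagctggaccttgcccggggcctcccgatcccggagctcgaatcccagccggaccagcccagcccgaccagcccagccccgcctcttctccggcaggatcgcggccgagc

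RefSeq gave such a stretch for 31 of the 42 members. A GC box occurred in 48.4% of the 31, against 42.3% of 27305 promoter stretches of the same length, and a CCAAT box in 16.1%, against 33.0%. The ABCA7 and ABCB6 stretches hold both boxes, the ABCG4 stretch holds a GC box, and those of ABCB1, ABCA2 and ABCC6 hold neither. The other motifs were searched on both strands, the E-box CACGTG (9.7% of members, 6.5% of all stretches), TTTNNCGC, a form of the E2F site (3.2% and 5.9%), and AGATAA, a form of the GATA site (12.9% and 9.4%). These are matches of letters and not binding sites.

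The members listed at 0 in every sample of both sublines numbered 16. They were ABCA1, ABCA4, ABCA6, ABCA8, ABCA9, ABCA10, ABCA12 and ABCA13 of subfamily A, ABCB5 and ABCB11 of B, ABCC9, ABCC12 and ABCC13 of C, ABCD2 of D, and ABCG5 and ABCG8 of G. The list holds ABCA1, which exports cholesterol to apolipoproteins, ABCB11, the bile salt pump of liver, and ABCG5 with ABCG8, which together export sterols. ABCG1, another cholesterol exporter, was at 0 in all 22Rv1DR samples and above 0 in DU145DR in library 1B alone, at 1.01 FPKM. ABCC8, the sulfonylurea receptor, reached 1.01 to 1.07 FPKM in 22Rv1DR libraries 4B, 5B and 4A and was at 0 in DU145DR.

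The drug pumps differed between the sublines in which were listed at 0. ABCB1 and ABCC1 were above 0 in all 24 samples. ABCG2 was above 0 in 22Rv1DR, where it had 1.79 and 1.89 FPKM with construct 1, 1.84 and 1.64 FPKM with construct 2 and 2.06 and 2.08 FPKM in control, and it was at 0 in all 12 DU145DR samples. ABCC2, ABCC8 and ABCC11 were likewise at 0 throughout DU145DR, so 17 members were at 0 throughout 22Rv1DR and 20 throughout DU145DR. A value of 0 means at or below 1 FPKM or an estimate that was not made, so it does not show that a gene is silent.

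**Figure D1:**
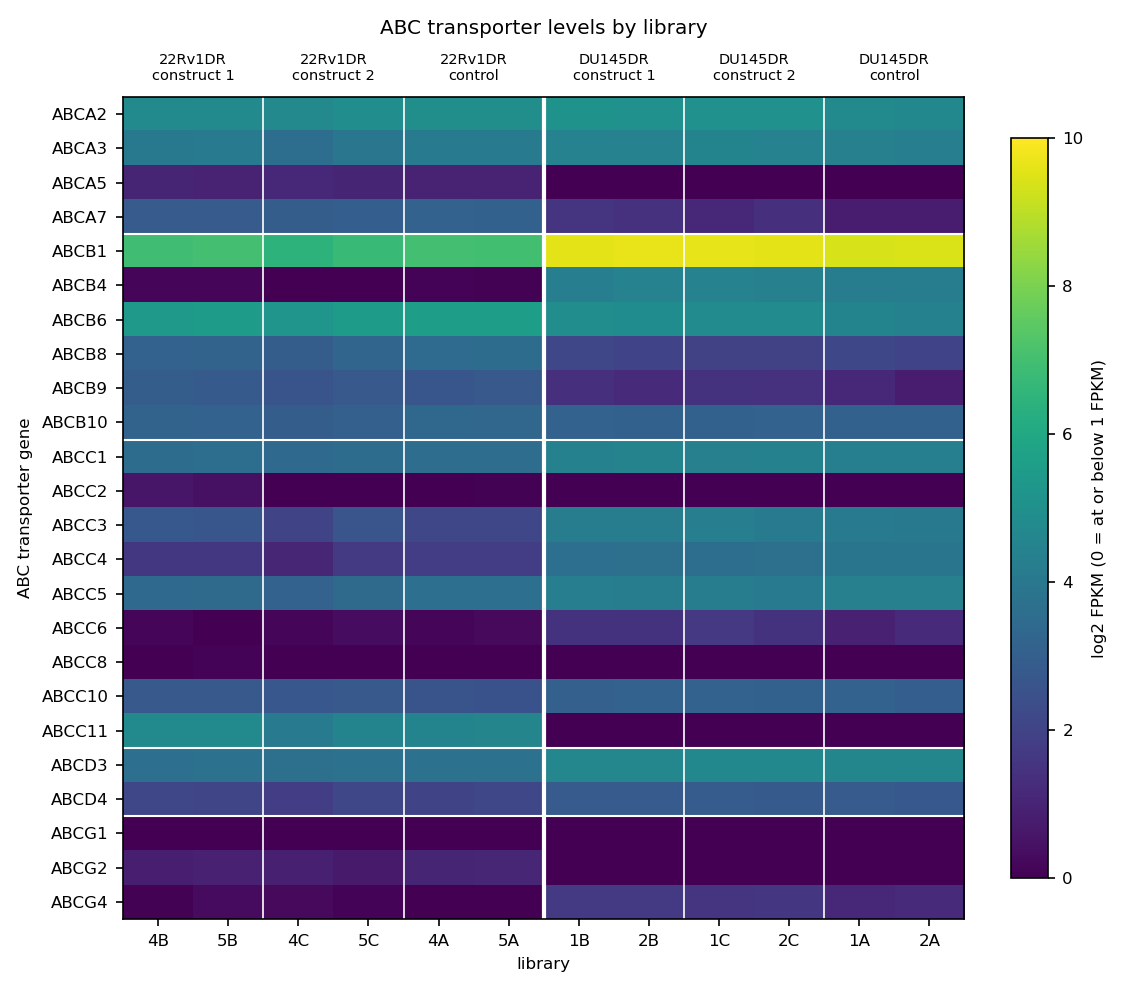
Levels of ABC transporters above 0 in any library (rows, by subfamily) in the 12 libraries (columns), as log2 FPKM in color, where 0 stands for 1 FPKM or less. ABCB1 is the brightest row in both sublines, and ABCC11 and ABCB4 differ most between the left and right sides.

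ABCB1 dominated the family. In 22Rv1DR it had 123 and 129 FPKM with construct 1, 87.7 and 108 FPKM with construct 2 and 129 and 127 FPKM in control, which was 30.7% to 35.2% of the summed FPKM of all 42 members in each library and rank 511 of 12822 symbols above the floor in the controls. In DU145DR it had 763 and 806 FPKM with construct 1, 796 and 775 FPKM with construct 2 and 675 and 688 FPKM in control. That was 74% to 75.8% of the sum, and in the controls ABCB1 ranked 29 among 12221 symbols. In 22Rv1DR the members after ABCB1 were ABCB6, at 47.6 and 48.3 FPKM in control, and ABCA2, at 30.9 and 31.0 FPKM, and their library values did not overlap. The next members in DU145DR were far below ABCB1, with ABCA2, ABCD3, ABCB6, ABCC5, ABCC1 and ABCA3 between 20.0 and 26.6 FPKM in the control group. Of neighbors in this order, ABCC1 and ABCA3 (20.0 FPKM each) overlapped in their library values, and the other 4 pairs did not.

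Between the control arms of the sublines, 22 of the 24 tested members differed, 11 higher and 11 lower in 22Rv1DR. The background was of the same kind, since 83% of all symbols tested differed, 40.3% higher and 42.7% lower, so the count says nothing particular about ABC transporters. The median log2 fold change of the members was -0.06, against -0.02 over all symbols. ABCA5, ABCC11 and ABCG2 were tested only because they were above 0 in 22Rv1DR, so their calls were bound to be higher there. Within the lane pair that holds 4A and both DU145DR control libraries, that is without 5A, 20 of the 22 kept their call. ABCA2 (0.22 ± 0.07) was among those that lost it, with an adjusted p of 0.0736, and it was also lost without 4A (0.0642) and without 2A (0.145).

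Of the 8 tested members of subfamily C, 6 were lower in 22Rv1DR and 1 was higher, and of the 7 of subfamily B 2 were lower and 5 higher. ABCB1 differed by -2.41 ± 0.08 on the log2 scale (22Rv1DR control over DU145DR control, adjusted p = 2.18e-09). ABCB4, the phosphatidylcholine floppase next to ABCB1 in the genome, had 1.08 and 1.05 FPKM in 22Rv1DR control, against 18.2 and 18.2 FPKM in DU145DR control (-4.10 ± 0.06, adjusted p = 1.04e-11). Because ABCB4 is at the floor in 22Rv1DR and 1 of its 4 control samples was listed at 0, that difference may be understated. Of the 50-base windows of the ABCB4 transcript, 2.82% also occur in ABCB1, and whether ABCB1 reads enter the ABCB4 values was not tested. ABCC4, which exports cyclic nucleotides and prostaglandins, had 3.53 and 3.48 FPKM in 22Rv1DR control, against 14.8 and 14.9 FPKM in DU145DR control (-2.08 ± 0.15). ABCC3, a pump for glucuronide conjugates and bile salts, had 4.34 and 4.38 FPKM in 22Rv1DR control, against 17.1 and 16.3 FPKM in DU145DR control (-1.93 ± 0.15). ABCC1, ABCC5, ABCC6 and ABCC10 were also lower in 22Rv1DR, with log2 fold changes of -0.51 to -0.87. ABCC11 went the other way, at 22.8 and 23.6 FPKM in 22Rv1DR control against 0 in both DU145DR control libraries. ABCC11 is known for the secretion of apocrine glands. In none of these members did the control libraries of the sublines overlap.

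In subfamily A 3 of the 4 tested members were higher in 22Rv1DR and none was lower. ABCA7, a phospholipid transporter, had 8.76 and 8.62 FPKM in 22Rv1DR control, against 1.72 and 1.76 FPKM in DU145DR control (2.32 ± 0.08, adjusted p = 1.62e-09). ABCB9, a lysosomal peptide transporter, had a log2 fold change of 1.75 ± 0.12, ABCB8, a mitochondrial transporter, 1.43 ± 0.10, and ABCB6, a porphyrin-binding transporter, 1.13 ± 0.08. ABCB10, a mitochondrial transporter tied to heme synthesis in red cell precursors, was 0.21 ± 0.06 higher on the log2 scale. ABCD3 and ABCD4 were lower in 22Rv1DR, with -0.82 ± 0.05 and -0.73 ± 0.09, as was ABCG4, a sterol exporter, which was at 0 in both 22Rv1DR control libraries and had 2.21 and 2.35 FPKM in DU145DR control. ABCA5 was at 2.00 and 1.97 FPKM in 22Rv1DR control and at 0 in DU145DR control. ABCA3, the surfactant lipid transporter of lung, and ABCC2 did not pass the test (adjusted p = 0.109 and 0.562), with ABCA3 at 17.96 and 17.48 FPKM in 22Rv1DR control against 20.6 and 19.4 FPKM in DU145DR control.

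**Figure D2:**
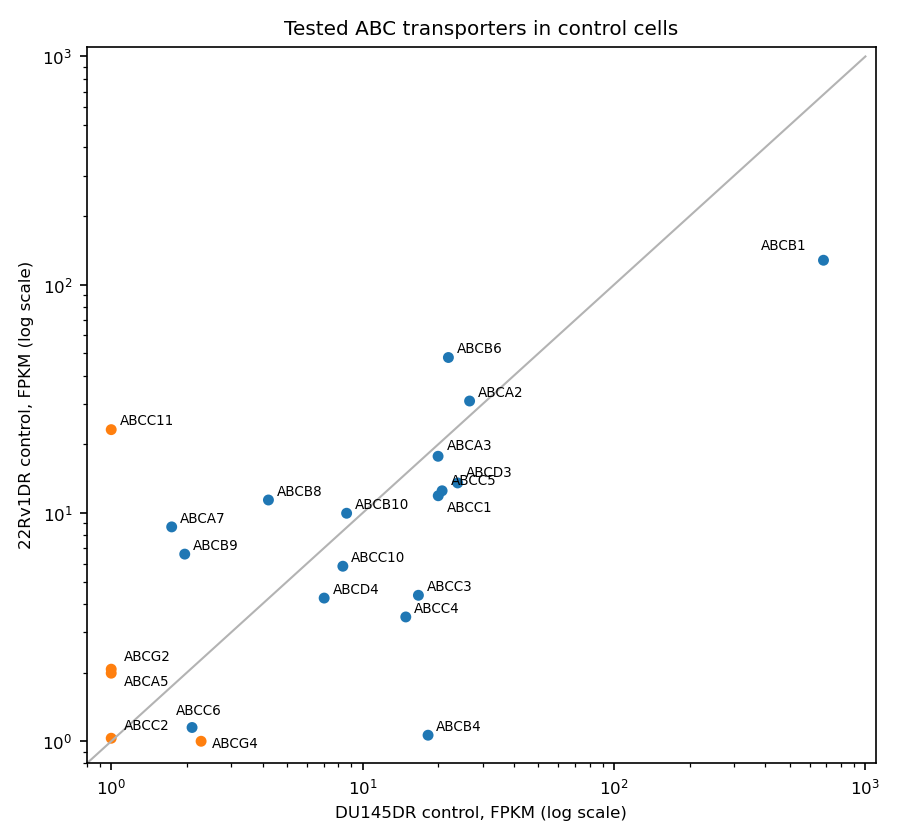
Mean level of tested members in 22Rv1DR control (vertical axis) and DU145DR control (horizontal axis), both in FPKM on log scales, 2 libraries each; points in orange are listed at 0 in the control libraries of 1 subline and are drawn there at 1 FPKM, and the gray line marks equal levels. ABCB1 and ABCB4 lie far below the line and ABCC11 and ABCA7 far above it.

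Genes around ABCB1 were compared in the control libraries too, an extension chosen after the level of ABCB1 was seen. Gene order is that of GRCh38.p14. Near ABCB1, 6 genes besides ABCB4 were several-fold lower in 22Rv1DR control than in DU145DR control. SLC25A40 was the least lowered of the 6, and 6.68% of all symbols tested had a log2 fold change at or below its own. DBF4, which activates the replication kinase CDC7, had 12.7 and 11.4 FPKM in 22Rv1DR control, against 239 and 253 FPKM in DU145DR control (-4.36 ± 0.07). DMTF1 had 19.5 and 21.7 FPKM in 22Rv1DR control, against 157 and 156 FPKM in DU145DR control (-2.93 ± 0.08), and CROT, a peroxisomal carnitine acyltransferase, 14.5 and 14.8 FPKM, against 105 and 106 FPKM (-2.85 ± 0.06). ADAM22 and SLC25A40 had log2 fold changes of -2.17 ± 0.07 and -1.94 ± 0.07. TMEM243 had 12.4 and 0 FPKM in 22Rv1DR control libraries, against 1089 and 1138 FPKM in DU145DR control libraries (-8.30 ± 1.28, adjusted p = 0.000791), a value that takes in 1 library listed at 0. Not all genes of the stretch followed, since RUNDC3B, next to ABCB1, had 7.82 and 7.68 FPKM in 22Rv1DR control and 0 in DU145DR control. SRI was also higher in 22Rv1DR control, at 64.4 and 67.5 FPKM, against 33.1 and 31.1 FPKM in DU145DR control. Further out, CACNA2D1, PCLO, SEMA3E, SEMA3D, STEAP1 and STEAP2 were called higher in 22Rv1DR control and GRM3 lower. KIAA1324L did not pass (-2.86 ± 2.01, adjusted p = 0.225), with DU145DR control libraries far apart at 15.95 and 259.6 FPKM. DNA copy number was not analysed here.

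**Figure D3:**
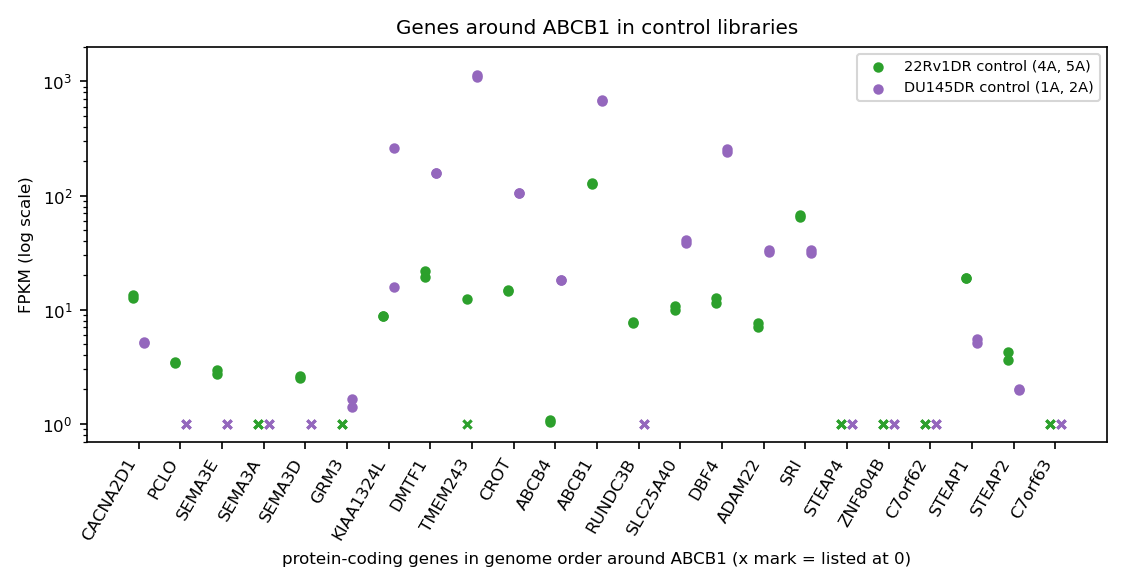
Levels of protein-coding genes in genome order around ABCB1 (horizontal axis) in the control libraries of 22Rv1DR (green) and DU145DR (purple), in FPKM on a log scale, 1 point per library; crosses are values listed at 0. From DMTF1 to ADAM22 all genes but RUNDC3B are higher in DU145DR, while SRI and the STEAP genes that are above 0 are higher in 22Rv1DR.

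In DU145DR, siPOM121 was followed by higher levels of 8 of the 24 tested members and lower levels of none. Over all symbols 23.9% were called, 14.5% higher and 9.37% lower. Of all these calls 60.8% were higher, or 51.6% after quantile normalization. The median log2 fold change of the members was 0.09, against 0.00 over all symbols. The 8 members included ABCA2, ABCA7, ABCB4, ABCB6, ABCB9, ABCC6 and ABCG4. The drug pumps ABCB1 and ABCC1 were not among them. ABCG2, ABCC2 and ABCC11, listed at 0 throughout DU145DR, could not be called. ABCA5, above 0 in DU145DR in library 1B alone at 1.015 FPKM, could hardly be called either. These members entered the tests through 22Rv1DR, and they count among the 24 and in the median.

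ABCA7 had 2.87 and 2.67 FPKM with construct 1 and 2.16 and 2.52 FPKM with construct 2, against 1.72 and 1.76 FPKM in control (0.55 ± 0.07, adjusted p = 0.000612). All 4 siPOM121 libraries lay above both controls. ABCB6 had 30.02 and 29.02 FPKM with construct 1 and 28.0 and 28.6 FPKM with construct 2, against 22.9 and 21.0 FPKM in control (0.40 ± 0.07, adjusted p = 0.00389). ABCA2, a lipid transporter of endolysosomes, had 35.5 and 33.0 FPKM with construct 1 and 33.7 and 33.0 FPKM with construct 2, against 27.9 and 25.5 FPKM in control (0.34 ± 0.06, adjusted p = 0.00464). These 2 were the most abundant members that rose, to 1.32 times the control level for ABCB6 and 1.27 times for ABCA2, and again no siPOM121 library overlapped a control.

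The other named members that rose were at lower levels or changed less. ABCG4 had 3.22 and 3.26 FPKM with construct 1 and 2.92 and 2.97 FPKM with construct 2, against 2.21 and 2.35 FPKM in control (0.44 ± 0.07, adjusted p = 0.00289). ABCC6, whose loss causes ectopic mineralization, had 2.78 and 2.80 FPKM with construct 1 and 3.16 and 2.74 FPKM with construct 2, against 1.90 and 2.32 FPKM in control (0.45 ± 0.10, adjusted p = 0.0104). ABCB9 had 2.53 and 2.26 FPKM with construct 1 and 2.78 and 2.72 FPKM with construct 2, against 2.22 and 1.73 FPKM in control (0.39 ± 0.10, adjusted p = 0.025). Its lowest siPOM121 library stood only just above control library 1A. ABCB4 had 19.6 and 21.4 FPKM with construct 1 and 21.9 and 20.2 FPKM with construct 2, against 18.2 FPKM in both controls (0.19 ± 0.06, adjusted p = 0.0357).

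ABCB1 itself did not pass the test in DU145DR. Its 4 siPOM121 libraries, at 763 to 806 FPKM, all lay above the 2 controls, at 675 and 688 FPKM, and the log2 fold change was 0.20 ± 0.07 (adjusted p = 0.0689). It passed where DU145DR was fitted alone (0.00214) and without 4C or 5C (0.00133 and 0.00134). ABCC1 had 20.9 and 22.0 FPKM with construct 1 and 20.5 and 20.9 FPKM with construct 2, against 20.1 and 19.9 FPKM in control (0.08 ± 0.05, adjusted p = 0.317). Altogether the 4 siPOM121 libraries lay above both controls for 14 of the 24 members and below both for 2, ABCC4 and ABCC5, where 27.2% and 22% of all symbols did so. ABCC4 and ABCC5 did not pass the test (-0.24 ± 0.13 and -0.16 ± 0.07). Of the remaining members above 0, ABCA3, ABCB8, ABCB10, ABCC3, ABCC10, ABCD3 and ABCD4 had log2 fold changes of -0.08 to 0.16 without passing.

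The constructs were alike in which members passed in DU145DR. Construct 1 against control called 6 members and construct 2 called 7, all higher, where 19.8% of all symbols were called for construct 1 (12.2% higher, 7.62% lower) and 16.6% for construct 2 (11% higher, 5.62% lower). Of all calls for construct 2, 66.1% were higher, or 54.3% after quantile normalization. The 6 of construct 1, ABCA2, ABCA7, ABCB6, ABCC6 and ABCG4 included, were all among the 7 of construct 2, which adds ABCB9; the 2 comparisons share their control libraries. No member differed between construct 2 and construct 1 in limma, where 0.022% of all symbols did (0.00734% higher, 0.0147% lower) and 1 member had an unadjusted p below 0.05. That does not show that the constructs act alike.

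Some DU145DR calls depended on 1 library. Without control 2A, 3 members passed, and ABCA2 (adjusted p = 0.0631), ABCB4 (0.167), ABCB6 (0.0545) and ABCB9 (0.241) were among those lost. Without control 1A, 5 passed, and ABCB4 (0.161) and ABCC6 (0.119) were among those lost. ABCB4 also lost its call without 2B, 1C, 4A, 5A, 4B or 5B (0.0503 to 0.0962), and ABCB9 without 1B, 1C or 2C (0.054 to 0.0729). Without 4C or 5C, whose spread enters the shared estimate, 13 passed, 11 higher and 2 lower. With a pseudocount of 0.5 FPKM, ABCG4 (adjusted p = 0.253), ABCC6 (0.299) and ABCB4 (0.547) lost their calls, and after quantile normalization ABCB9 did (0.106). ABCA7 was the single member that passed under every alternative tried. Some of the risers share sequence with other annotated genes in GENCODE v29. For ABCB6, 90.8% of 50-base windows of the transcript also occur in AC068946.2, which overlaps it, and for ABCC6, 14.9% occur in the pseudogenes ABCC6P1 and ABCC6P2. For ABCB9, 24.5% of exon bases overlap other genes, and the libraries do not keep strand, so these 3 are uncertain as to the source of their reads. For ABCB4, 2.82% of windows also occur in ABCB1, whose level in DU145DR is far higher. Whether ABCB1 reads enter the ABCB4 values was not tested.

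**Figure D4:**
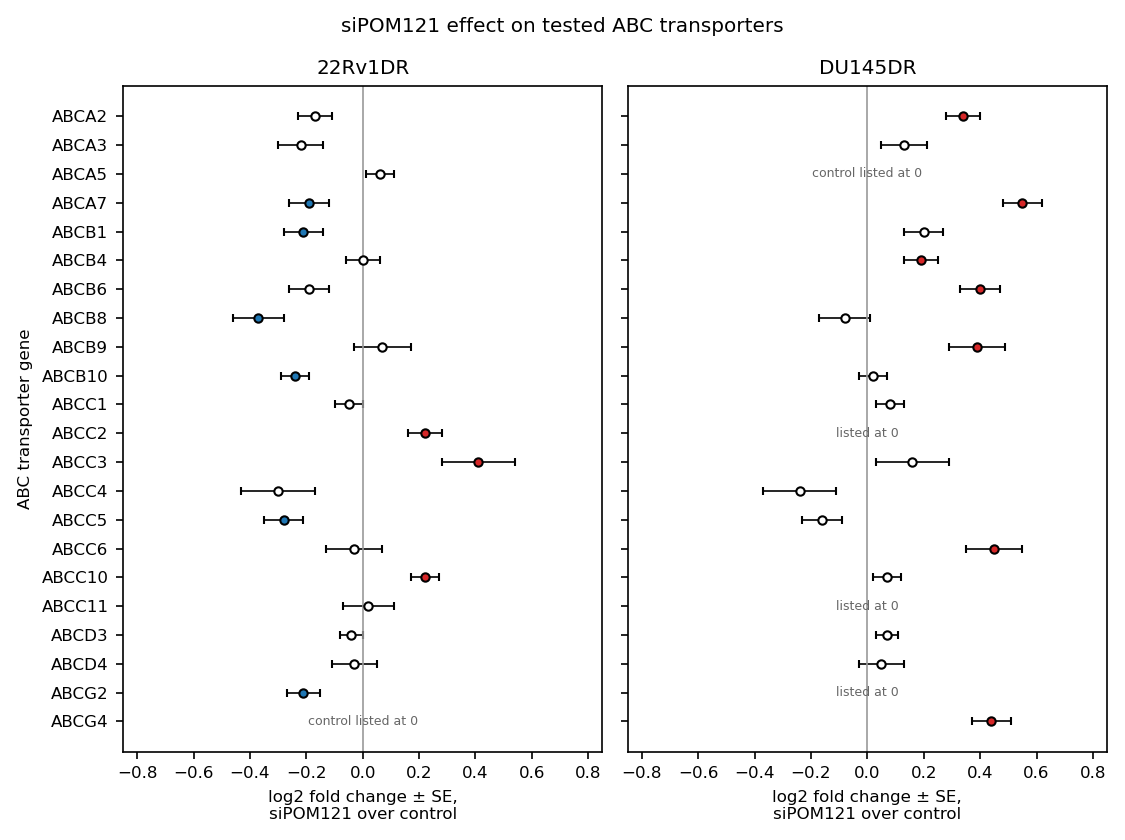
Log2 fold change of siPOM121 (mean of both constructs) over control with its standard error for tested members in 22Rv1DR (left) and DU145DR (right), from 4 siPOM121 and 2 control libraries per subline. Filled points passed an adjusted p of 0.05 (red higher, blue lower), and members listed at 0 in control have no point; filled points in DU145DR all lie right of 0, while most in 22Rv1DR lie left.

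In 22Rv1DR, siPOM121 was followed by changes in 10 of the 24 tested members, 3 higher and 7 lower. Over all symbols 35.5% were called, 15.2% higher and 20.4% lower, and the members' median log2 fold change was -0.05, against -0.02. Of all these calls 42.7% were higher, or 50.5% after quantile normalization. Those that rose were ABCC3 and ABCC10, with ABCC2 as the third. ABCC2 was above 0 on both lanes only in the construct 1 libraries, which alone brought it into the tests, so its call carries no weight and 2 higher and 7 lower remain without it. Those that fell included ABCB1, ABCG2 and ABCC5 of the efflux pumps, ABCB8 and ABCB10 of mitochondria, and ABCA7. None of the 10 kept its call under every alternative tried.

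ABCB8, part of a mitochondrial potassium channel complex, had 8.94 and 9.06 FPKM with construct 1 and 7.79 and 9.68 FPKM with construct 2, against 11.1 and 11.7 FPKM in control (-0.37 ± 0.09, adjusted p = 0.0108). ABCB10 had 9.05 and 8.90 FPKM with construct 1 and 7.66 and 8.31 FPKM with construct 2, against 10.2 and 9.76 FPKM in control (-0.24 ± 0.05, adjusted p = 0.00511). ABCC5, a pump of nucleotide analogs, had 10.7 and 10.9 FPKM with construct 1 and 8.92 and 11.0 FPKM with construct 2, against 12.4 and 12.6 FPKM in control (-0.28 ± 0.07, adjusted p = 0.0165). In these 3 genes every siPOM121 library lay below both controls. ABCA7 had 7.39 and 7.31 FPKM with construct 1 and 7.83 and 7.88 FPKM with construct 2, against 8.76 and 8.62 FPKM in control (-0.19 ± 0.07, adjusted p = 0.0462). It was below control in all 4 siPOM121 libraries, the reverse of its order in DU145DR.

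Averaged over both constructs, the drug pumps ABCB1, ABCC1 and ABCG2 changed little. For ABCB1 the constructs differed, with -0.03 ± 0.08 for construct 1 and -0.40 ± 0.08 for construct 2. ABCG2, at the FPKM values given above, fell slightly (-0.21 ± 0.06, adjusted p = 0.0222), with all siPOM121 libraries below both controls. These values are near the floor. The ABCG2 call was lost with a pseudocount of 0.5 FPKM (adjusted p = 0.0996), after quantile normalization (0.0543) and with 22Rv1DR fitted alone (0.129). ABCB1 had -0.21 ± 0.07 (adjusted p = 0.0451), but library 5B, at 129 FPKM, was level with the controls, at 129 and 127 FPKM, and the call was lost in 14 of the 17 alternatives (adjusted p up to 0.194). ABCC1 had 11.4 and 12.3 FPKM with construct 1 and 10.7 and 11.7 FPKM with construct 2, against 11.96 and 11.85 FPKM in control (-0.05 ± 0.05, adjusted p = 0.486).

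Of the members that rose, ABCC10, a pump of lipophilic drugs, had 6.92 and 6.89 FPKM with construct 1 and 6.57 and 6.87 FPKM with construct 2, against 5.99 and 5.71 FPKM in control (0.22 ± 0.05, adjusted p = 0.0121). No library of siPOM121 overlapped a control. ABCC3 had 6.80 and 6.47 FPKM with construct 1 and 4.14 and 6.26 FPKM with construct 2, against 4.34 and 4.38 FPKM in control (0.41 ± 0.13, adjusted p = 0.0357). Here 4C fell below the controls while 5C stood with construct 1, and the fold change was 0.56 without 4C and 0.26 without 5C. ABCC2 was at the floor, with 1.53 and 1.35 FPKM with construct 1 and 0 and 1.02 FPKM with construct 2, against 1.01 and 1.05 FPKM in control, and its fitted log2 fold change of 0.22 is a description of the construct 1 libraries. Of the 4 control samples of ABCC2, 2 were listed at 0.

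Several members did not pass in 22Rv1DR. ABCC4 had 3.10 and 3.07 FPKM with construct 1 and 2.12 and 3.27 FPKM with construct 2, against 3.53 and 3.48 FPKM in control (-0.30 ± 0.13, adjusted p = 0.116). ABCA2, ABCA3 and ABCB6 had -0.17 ± 0.06, -0.22 ± 0.08 and -0.19 ± 0.07, each with all siPOM121 libraries below both controls. ABCG4 was at 1.04 and 1.22 FPKM with construct 1 and 1.18 and 1.06 FPKM with construct 2, against 0 in both controls, and it passed with a pseudocount of 0.5 FPKM (adjusted p = 0.00127). ABCA5, ABCB4, ABCB9, ABCC6, ABCC11, ABCD3 and ABCD4 had log2 fold changes between -0.04 and 0.07. For ABCB4 that is an average of unlike arms at the floor. It had 1.11 and 1.14 FPKM with construct 1, 0 in both construct 2 libraries and 1.08 and 1.05 FPKM in control. All 4 siPOM121 libraries lay below both controls for 10 members and above both for 3, ABCC10 and ABCG4 included, where 27.3% and 18% of all symbols did so.

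Control libraries carried much of the weight in 22Rv1DR. Without control 5A, 1 member, ABCB10, passed. Without control 4A, which leaves the 5 libraries read on 1 pair of lanes, 2 passed, ABCB8 and ABCC10. Adjusted p without 4A and without 5A were 0.188 and 0.157 for ABCA7, 0.194 and 0.16 for ABCB1, 0.153 and 0.151 for ABCC3, 0.0791 and 0.107 for ABCC5 and 0.0867 and 0.12 for ABCG2. ABCB10 was lost without 4A (0.053), and ABCB8 and ABCC10 without 5A (0.0935 and 0.108). Without 4B or 5B 5 members passed, without 1A, 2A, 1B or 2B 6, without 4C 11 and without 5C 15. ABCB1 and ABCC3 were also lost without any 1 of the 6 DU145DR libraries, 4B or 5B (0.0509 to 0.117). ABCA7 was lost without 1A, 2A, 1B, 2B, 4B, 5B or 4C (0.0517 to 0.102) and ABCG2 without 4B (0.0672). Without 4B or 5B, ABCC2 was above 0 too seldom to be tested.

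**Figure D5:**
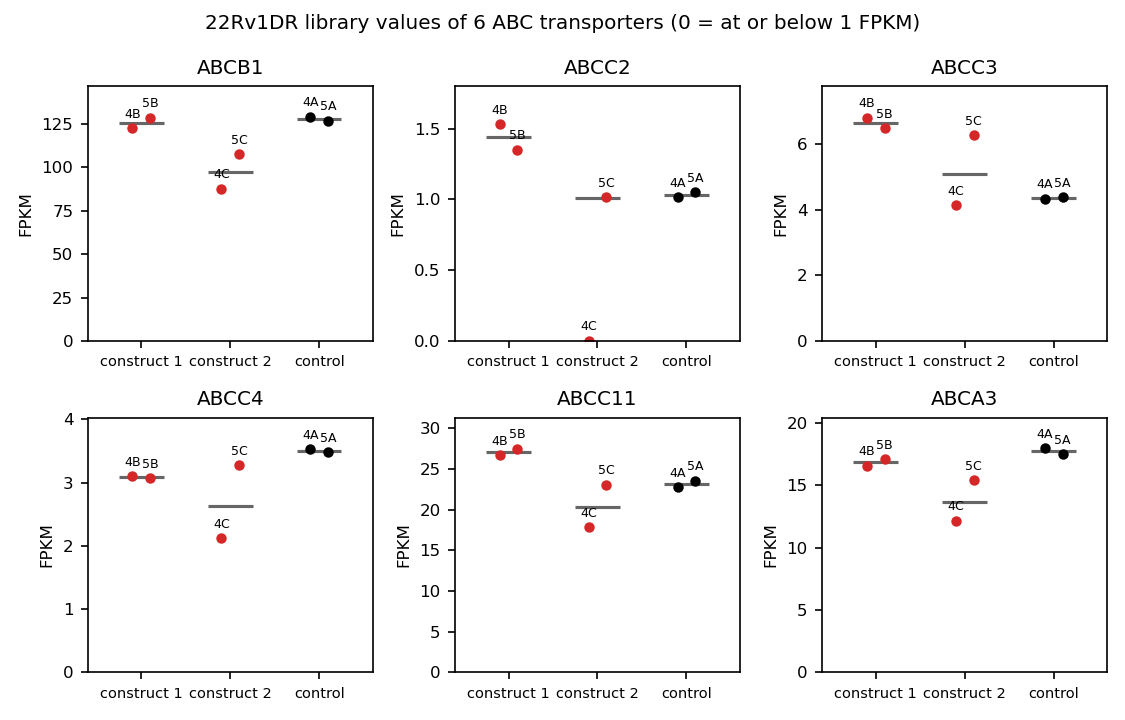
FPKM of 6 ABC transporters in the 22Rv1DR libraries with siPOM121 construct 1, construct 2 (red) and control (black), 1 labeled point per library, with bars at the group level and every axis from 0. Library 4C is the lowest point in all 6 panels, and 5C lies nearer to construct 1 or control. The 6 do not stand for all members, since 4C was above 5C in ABCG2 and above both construct 1 libraries in ABCA7.

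In 22Rv1DR 3 members were called lower with construct 2 than with construct 1. They were ABCB1 (-0.37 ± 0.08, adjusted p = 0.0238), ABCC11 (-0.42 ± 0.10, adjusted p = 0.0309) and ABCC2, whose call carries no weight because the construct 1 libraries alone brought it into the tests. Over all symbols 11.6% differed, 7.3% higher and 4.28% lower, and the members' median was -0.12, against -0.01. ABCC11 had 17.8 and 23.1 FPKM with construct 2, against 26.7 and 27.5 FPKM with construct 1, with control between at 22.8 and 23.6 FPKM. For ABCB1 and ABCC11 both construct 2 libraries lay below both construct 1 libraries, and 4C was the lowest. ABCB4, at 0 in both construct 2 libraries, did not pass (-0.17 ± 0.06, adjusted p = 0.114). It passed with a pseudocount of 0.5 FPKM (adjusted p = 0.00344). For ABCB1 and ABCC11 the differences were -0.22 and -0.23 without 4C (adjusted p = 0.0156 and 0.0316), and without 5C they were -0.52 and -0.60. Without 4B or 5B no member passed, with adjusted p of 0.108 and 0.147 for ABCB1, while ABCC2 could not be tested. ABCC11 was lost without any 1 of the 10 libraries other than 4C and 5C (0.0532 to 0.16). Without 5C, which leaves 4C alone, 12 passed.

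Against control, construct 1 called 5 members in 22Rv1DR (27.1% of all symbols, 12% higher and 15.2% lower) and construct 2 called 9 (35.1%, 14.5% higher and 20.6% lower). ABCC10 was higher and ABCB8 lower with both, which is 2 of the 5 and 2 of the 9. Construct 1 alone called ABCC3 higher and ABCA7 lower, and also ABCC2 higher, for which the same limit holds. Among the members that construct 2 alone called lower were ABCA3, ABCB1, ABCB6, ABCB10, ABCC5 and ABCG2. With construct 2 the log2 fold change of ABCB1 was -0.40 ± 0.08 (adjusted p = 0.00646), and with construct 1 it was -0.03 ± 0.08 (adjusted p = 0.897). With construct 2, ABCB6 was -0.11 without 4C (adjusted p = 0.16), against -0.25 with both libraries, and ABCC4 was -0.10 without 4C and -0.72 without 5C.

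The effect of siPOM121 differed between the sublines for 8 of the 24 members, each lower in 22Rv1DR than in DU145DR. Over all symbols 24.8% differed, 8.93% higher and 15.9% lower, and the members' median difference was -0.20, against -0.06. Of all calls 36% were higher in 22Rv1DR, or 49.2% after quantile normalization, and under that scaling 7 members passed, 1 higher and 6 lower. The difference was large for ABCA7 (-0.74 ± 0.09, adjusted p = 0.00101), ABCB6 (-0.58 ± 0.10, adjusted p = 0.00413) and ABCA2 (-0.51 ± 0.09, adjusted p = 0.00457). These 3 passed under every alternative tried. ABCC6 (-0.48 ± 0.14), ABCB1 (-0.42 ± 0.10), ABCA3 (-0.36 ± 0.11) and ABCB10 (-0.25 ± 0.07) passed with adjusted p of 0.0338, 0.0178, 0.0461 and 0.026. In 22Rv1DR ABCC6 was near the floor, at 1.07 and 1.18 FPKM with constructs 1 and 2 and 1.15 FPKM in control. Every 22Rv1DR arm had samples of ABCC6 listed at 0, so a fall there could hardly show. ABCA7 fell in 22Rv1DR and rose in DU145DR.

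The weaker differences depended on the processing and on single libraries. After quantile normalization ABCB1 (-0.26, adjusted p = 0.0728) and ABCC6 (-0.30, adjusted p = 0.0888) lost their calls. With a pseudocount of 0.5 FPKM, ABCC6 (adjusted p = 0.224) and ABCA3 (0.0562) lost theirs. Without 4A or 5A 4 members passed in each case, and without 1A, 2A, 1B or 4B 5. Without 5C 13 passed. Adjusted p of ABCB1 was 0.0675 without 4A, 0.062 without 5A, 0.0658 without 1A and 0.0619 without 2A. ABCA3 lost its call without any 1 of 10 libraries, all but 4C and 5C (0.0731 to 0.169). ABCB10 was lost without 1A, 2A, 1B, 4A, 5A, 4B or 5B (0.0509 to 0.0979), and ABCC6 without 1A, 1B, 2B, 1C, 4A, 5A, 4B or 5B (0.0517 to 0.133). POM121 itself fell by 2.37 on the log2 scale in 22Rv1DR and by 0.71 in DU145DR, and whether the depth of knockdown bears on the differences was not tested.

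Genes that work with the transporters were counted in lists drawn up from general knowledge. Their counts are to be read beside the shares of all symbols, 15.2% higher and 20.4% lower in 22Rv1DR and 14.5% higher and 9.37% lower in DU145DR. Of 8 tested ABC genes outside the naming rule (ABCE and ABCF genes, TAP1 and TAP2, and pseudogenes), 0 rose and 3 fell (37.5%) in 22Rv1DR, and 1 rose (12.5%) and 4 fell (50%) in DU145DR. ABCF2, a ribosome-associated ABC protein, fell in both, at 32.3 FPKM with construct 1 and 24.9 FPKM with construct 2 against 38.8 FPKM in control in 22Rv1DR (-0.45 ± 0.04, adjusted p = 0.000127), and at 24.8 and 25.2 FPKM against 29.2 FPKM in DU145DR (-0.23 ± 0.04, adjusted p = 0.00559). ABCF3 (-0.21 ± 0.05) and ABCF1 (-0.24 ± 0.08) fell in 22Rv1DR. In DU145DR ABCE1, the ribosome recycling factor, fell (-0.26 ± 0.06), as did the pseudogene ABCA11P (-0.48 ± 0.06), and TAP1, a subunit of the antigen peptide transporter, rose (0.31 ± 0.07) while its partner TAP2 fell (-0.24 ± 0.07).

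Of 16 cholesterol efflux and LXR genes, 4 rose (25%) and 2 fell (12.5%) in 22Rv1DR, and 5 rose (31.2%) and 0 fell in DU145DR. MYLIP, an LXR target that degrades the LDL receptor, rose in both, by 0.29 ± 0.05 in 22Rv1DR and 0.73 ± 0.05 in DU145DR on the log2 scale. NR1H2, which encodes LXR beta, had 40.0 and 40.2 FPKM with the 2 constructs against 27.3 FPKM in control in 22Rv1DR (0.55 ± 0.06). In DU145DR NR1H2 had 0.07 ± 0.06 without passing. NR1H3, which encodes LXR alpha, fell in 22Rv1DR (-0.40 ± 0.13, adjusted p = 0.0383) and had 0.03 ± 0.13 in DU145DR without passing. SREBF1 fell in 22Rv1DR (-0.62 ± 0.08) and rose in DU145DR (0.37 ± 0.08). The LXR targets ABCA1 and ABCG1 of the family stayed at or near 0 in both sublines.

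Of 18 xenobiotic response and conjugation genes, 6 rose (33.3%) and 3 fell (16.7%) in 22Rv1DR, and 4 rose (22.2%) and 0 fell in DU145DR. AHR, the dioxin receptor, rose in both, by 0.65 ± 0.05 in 22Rv1DR and 0.18 ± 0.05 in DU145DR, and MGST3, a microsomal glutathione transferase, by 0.24 ± 0.04 and 0.39 ± 0.04. UGT1A6, which makes glucuronides, rose in 22Rv1DR (0.46 ± 0.08), while SULT1A1, a sulfotransferase, fell (-0.62 ± 0.09). UGT1A6 shares exons with other UGT1A genes, so its reads may not be its own. GSTM3 and MGST2 rose in DU145DR (0.26 ± 0.05 and 0.36 ± 0.08).

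Of 15 partners of peroxisomal and cobalamin transport, 4 rose (26.7%) and 1 fell (6.67%) in 22Rv1DR, and 6 rose (40%) and 0 fell in DU145DR. These are counts in short lists, with no test of the list. CAT, the peroxisomal catalase, had 81.5 and 75.7 FPKM with constructs 1 and 2 against 57.8 FPKM in control in 22Rv1DR (0.44 ± 0.05), and 19.8 and 19.3 FPKM against 14.6 FPKM in DU145DR (0.42 ± 0.05). LMBRD1, which works with ABCD4 in cobalamin export, rose in both (0.27 ± 0.05 and 0.31 ± 0.05). ABCD4 itself had -0.03 ± 0.08 in 22Rv1DR and 0.05 ± 0.08 in DU145DR without passing. SCP2 rose in 22Rv1DR (0.26 ± 0.04), and EHHADH and ACAA1, enzymes of peroxisomal beta oxidation, in DU145DR (0.34 ± 0.05 and 0.26 ± 0.05). MTR, the cobalamin-dependent methionine synthase, fell in 22Rv1DR (-0.43 ± 0.05).

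Of 20 heme and iron-sulfur genes, 1 rose (5%) and 5 fell (25%) in 22Rv1DR, and 1 rose (5%) and 2 fell (10%) in DU145DR, near the shares of all symbols for those that fell. UROD, a heme synthesis enzyme, and FLVCR1, a heme exporter, fell in 22Rv1DR (-0.36 ± 0.05 and -0.28 ± 0.05), and ISCU, the iron-sulfur scaffold, rose (0.24 ± 0.04). In DU145DR SLC25A37, the mitochondrial iron importer, and SLC25A38, a glycine carrier, fell (-0.33 ± 0.04 and -0.29 ± 0.09), and ALAD rose (0.34 ± 0.08). FECH, the last enzyme of heme synthesis, had 0.13 ± 0.05 there without passing.

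Markers of other cell types moved with siPOM121 in 1 case. COL1A1 had 2.65 and 2.22 FPKM with constructs 1 and 2 in DU145DR, against 1.06 FPKM in control. That control level is at the floor, with samples from 0 to 1.10 FPKM. The part of COL1A1 in the changes of DU145DR was not tested. The other 9 stroma, endothelium and blood markers were at 0 in every sample. In 22Rv1DR the summed FPKM of the prostate markers was 1179.7 to 1188.2 with construct 1, 883.5 to 1035.2 with construct 2 and 982.9 to 1002.8 in control, and its part in the 22Rv1DR changes was not tested. In DU145DR the sum was 117.1 to 125.2 with construct 1, 117.3 to 122.0 with construct 2 and 118.8 to 129.1 in control.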

How the data were processed

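RNA of the 24 samples was poly(A)-selected and made into TruSeq v2 libraries, per the labels' protocols. Reads were aligned with TopHat and quantified with Cufflinks, with hg19 and mm10 named as builds, per the submitters' processing notes; versions are not given in the sources used here. The authors deposited 1 table of log2 FPKM; per the values, the base is 2, since 100% of 305952 values above 0 become numbers of 6 significant digits as powers of 2 (within 0.02 units of the sixth digit), against 3.97% as powers of e. Values at or below 1 FPKM are listed as 0, which is 52.8% of all values. Read counts are not used here, so the depth is unknown and counting error cannot be given.

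The 2 lanes of a library were averaged on the log2 scale, and repeated symbols (605, none of them a member) keep the line with the highest mean. Symbols above 0 on both lanes of at least 2 of the 12 libraries were tested, which left 13622. Tests used limma 3.58.1 in R 4.3.3 with 1 mean per group over all 12 libraries, moderated statistics with trend and robust options, 2-sided, with Benjamini-Hochberg adjustment and a threshold of 0.05. The same script was tested on simulated data. Levels of a group are powers of 2 of its mean log2 value. No fold change is given against a group listed at 0.

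The members and gene lists were chosen with earlier results of these data known. Counts cover all members, while values of some members and partner genes are not reported here; of each list up to 4 genes with the smallest p in each subline are named. Alternatives were a pseudocount of 0.5 FPKM, no filter, quantile normalization, a replicate block by library number, each subline fitted alone and leaving out each library. Lanes 1 and 2 held library 4A and every DU145DR library, and lanes 3 and 4 held the other 5. Promoter sequences are from RefSeq (GRCh38.p14), and shared sequence was looked up in GENCODE v29; no coordinates of the table's own build are used.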

Additional observations from a re-analysis of the deposited data

Results flagged for a closer look

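The effect of siPOM121 stood out in the members below because it differed between 22Rv1DR and DU145DR by a test of that difference (the interaction term in limma, adjusted over all symbols tested). The difference of the log2 fold changes, 22Rv1DR minus DU145DR, was -0.74 for ABCA7, -0.58 for ABCB6, -0.51 for ABCA2, -0.48 for ABCC6, -0.42 for ABCB1, -0.36 for ABCA3 and -0.25 for ABCB10. Over all symbols tested, 24.8% differed in this way, so the presence of such members is not particular to the family. ABCC6 was near the floor in every 22Rv1DR arm. ABCC6 and ABCB1 lost their calls of a difference after quantile normalization. Single libraries could not be checked for outliers, because each group holds 2.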

How the results depend on the processing

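Leaving out 4B or 5B gave no value for ABCC2, which then fell out of the tests. No member changed direction among 884 recomputed fold changes of called or always named members, of which 739 kept their side of the threshold, 142 lost it and 3 passed it. Where counts moved, the cause was not tested unless named. With a pseudocount of 0.5 FPKM, 5 members passed in DU145DR in place of 8. With each subline fitted alone, 13 passed in DU145DR, 4 in place of 10 in 22Rv1DR and 0 in place of 3 for construct 2 against construct 1 in 22Rv1DR, where quantile normalization gave 5. Leaving out 1 library gave 3 to 13 members in DU145DR, 1 to 15 in 22Rv1DR, 0 to 0 for construct 2 against construct 1 in DU145DR, 0 to 12 for the same in 22Rv1DR, 4 to 13 for the difference between sublines and 20 to 23 between controls. Without a filter on low values no count left the range of 1.5 times. The labels do not say whether library numbers pair the samples. Same-numbered libraries deviated with correlations across genes of -0.07, -0.00 and 0.13 in DU145DR and -0.10, -0.05 and 0.10 in 22Rv1DR. Such correlations cannot show whether the libraries were handled together. With the replicate block, 7 members passed in DU145DR, 10 in 22Rv1DR, 0 and 3 between constructs, 6 for the difference between sublines and 22 between controls. The block ended the calls of ABCB4 in DU145DR (adjusted p = 0.0665), of ABCA7 in 22Rv1DR (0.0721), where ABCB6 passed in its place (0.0491), and of ABCA3 (0.0502) and ABCC6 (0.061) for the difference between sublines. The floor of 1 FPKM limits members such as ABCC2, ABCB4, ABCC6 and ABCG4 in 22Rv1DR, and 2 libraries per group limit all tests.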
